A study of Homo sapiens with 12 samples.

Results

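Genes that mark ovarian carcinoma or its lineage of origin, namely PAX8, SOX17, WT1, MECOM, ESR1, MUC16, MUC1, WFDC2, MSLN and FOLR1, were followed in SK-OV-3 cells exposed to a BMP ligand, to the compound DM, or to both. They were chosen by name, as 10 of the 19775 genes measured, and all 36 probe sets that the platform annotation gives to one of these symbols alone were examined. The cells are a long-established line from a human ovarian carcinoma. There were 12 cultures, labelled as biological replicates and each measured on its own Affymetrix array after 24 h. Of these, 3 received PBS, the control, 3 received recombinant BMP2 (100 ng/ml), 3 received DM (5 µM) and 3 received both reagents. The labels name DM by these letters alone, and all cultures were of a single cell line, so the results describe that line only.

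PAX8 and SOX17 are transcription factors of the Müllerian tract, the embryonic source of the fallopian tube epithelium, and pathologists use PAX8 and WT1 staining to recognise tumours of that origin. MECOM encodes a zinc-finger transcription factor that is often amplified in ovarian carcinoma, and ESR1 encodes oestrogen receptor alpha. The other genes encode products found on the surface of tumour cells or shed into blood: MUC16 carries the CA125 epitope, MUC1 is a transmembrane mucin, WFDC2 is the serum marker HE4, MSLN is mesothelin and FOLR1 is folate receptor alpha. BMP2 signals through receptors that phosphorylate SMAD transcription factors, and the comparisons ask whether this pathway, or DM, altered the antigens and lineage factors.

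The deposited values are MAS5 signals, linear brightness values for each probe set, scaled by the authors to a common level on every array. A probe set passed the filter when its mean log2 signal over the 12 arrays exceeded that of the median probe set, equal to a signal of 69.8. By that filter 8 genes were tested, each through its brightest probe set, and WT1 and MUC16 were not. Changes are log2 fold changes ± standard error from one limma fit to 12674 genes with 3 arrays in each group, and calls required a p under 0.05 after Benjamini-Hochberg adjustment over them. In bulk RNA, fewer cells of a type and less RNA per cell cannot be told apart.

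The cultures had the profile of an epithelial tumour line. Geometric mean signals over the 12 arrays were 15400 for the keratin gene KRT18, 6700 for KRT8, 3790 for EPCAM and 11200 for ERBB2, which is amplified in this line, while the E-cadherin gene CDH1 was below the filter at 34.5. Of the markers of other cells, 3 of 6 mesothelial, 2 of 6 fibroblast, 1 of 6 endothelial and 0 of 4 leukocyte genes lay above the filter. Only those above it were tested, and limma called none of them in the 6 comparisons. The rest, with every leukocyte gene, were not tested. Summed mesothelial signals ran from 1403 to 1661 with PBS, 1232 to 2016 with BMP2, 1330 to 1849 with DM and 1305 to 1578 with both. Fibroblast and endothelial sums likewise overlapped those of PBS in every group. Epithelial sums ran from 32570 to 34590 with PBS, 28070 to 34190 with BMP2, 37150 to 39080 with DM and 34580 to 39650 with both. The 4 leukocyte genes, all below the filter, summed to 103.3 to 179.2 with PBS and 201.9 to 472.5 with BMP2. Those sums were 60.86 to 234.1 with DM and 222.9 to 288.6 with both. Of the 6 epithelial genes 5 were tested, and with DM against PBS 1 was called, where 3.57% of all genes were. It was KRT7, another epithelial keratin, which rose by 0.94 ± 0.14 (adjusted p = 0.000754 by limma). In that comparison 4 of the 5 changes were positive and 1 negative, EPCAM at -0.17 ± 0.13. With BMP2 against PBS 0 of the 5 were called (0.631% of all genes), and EPCAM had -0.50 ± 0.13 (adjusted p = 0.121 by limma). Median signals per array ranged from 86.7 to 112, the highest being that of BMP2 replicate 1. The 3 BMP2 arrays correlated with each other at means of 0.842 to 0.848, below the 0.861 to 0.877 within the other groups.

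Of the 8 tested genes, limma called 0 in each of the 6 comparisons. In BMP2 against PBS 0 of 8 were called and 1, MUC1, had an unadjusted p under 0.05, where 0.631% and 10.5% of all genes tested did. In DM against PBS 0 were called and 3 had an unadjusted p under 0.05, SOX17, MECOM and FOLR1, against 3.57% and 16.2% of all genes. For BMP2+DM against BMP2 the counts were 0 and 2, MUC1 and WFDC2, against 7.25% and 21.8%. For BMP2+DM against DM they were 0 and 1, PAX8, against 0.0473% and 8.88%, and for BMP2+DM against PBS 0 and 2, MECOM and FOLR1, against 4.09% and 18.7%. For the interaction, the change with BMP2 in the presence of DM less that in its absence, 0 were called and 3 had an unadjusted p under 0.05, PAX8, SOX17 and MUC1, against 0.118% and 8.7%.

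The direction of the changes was mixed. The median log2 change of the 8 genes was 0.06 with BMP2, -0.14 with DM and 0.14 with both against PBS, where the medians of all genes tested were 0.03, 0.02 and 0.05. Arrays did not overlap between BMP2 and PBS for 2 of the 8 genes (15% of all genes), between DM and PBS for 4 (21.8%), between BMP2+DM and BMP2 for 2 (25.8%), between BMP2+DM and DM for 2 (15.2%), and between BMP2+DM and PBS for 5 (25.8%). By the brightest probe sets, the 5 were PAX8, SOX17 and MECOM, higher with both reagents, and MUC1 and FOLR1, lower. Other probe sets differed. PAX8 214528_s_at (-0.51 ± 0.22, adjusted p = 0.222 by limma) and MECOM 221884_at (-0.25 ± 0.13, adjusted p = 0.32) were lower with both reagents, also without overlap. SOX17 219993_at had -0.01 ± 0.13. MUC1 207847_s_at and FOLR1 204437_s_at had -0.44 ± 0.29 and -0.21 ± 0.28, with arrays that overlapped PBS, and MUC1 211695_x_at had 0.15 ± 0.38. The comparisons against PBS share the same 3 control arrays.

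**Figure D1:**
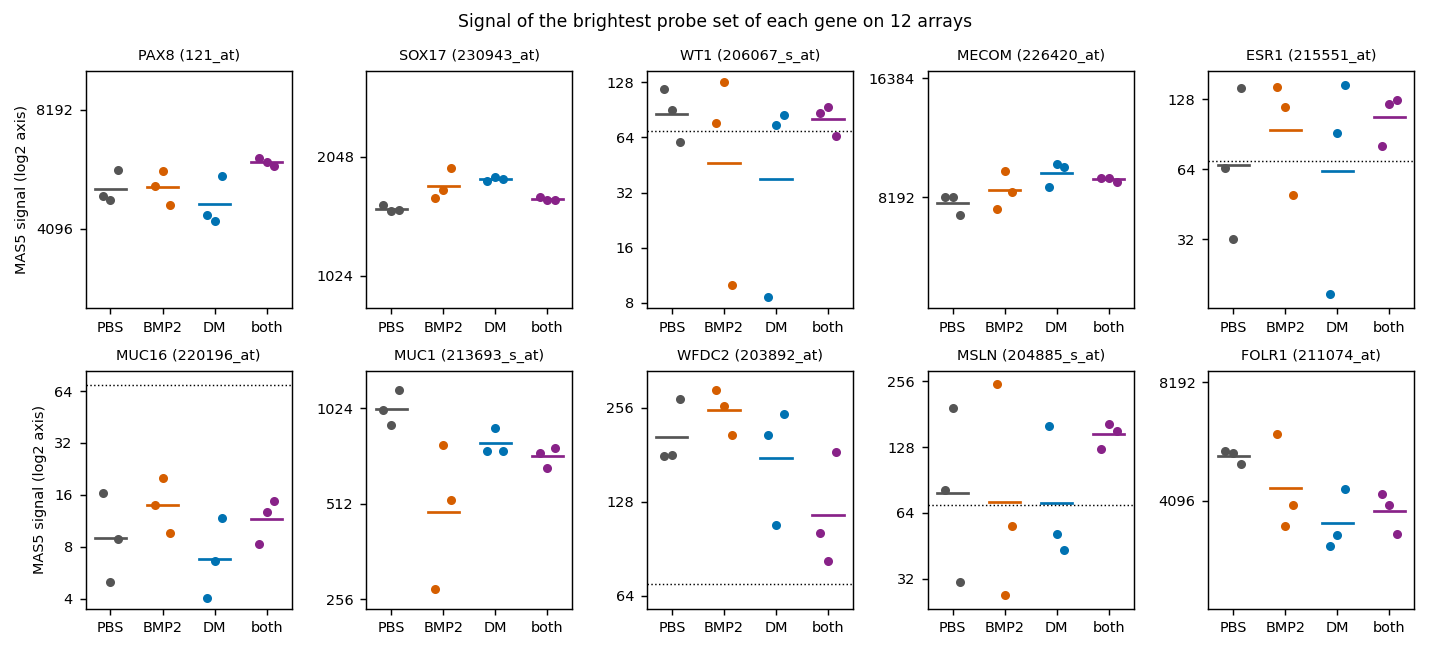
MAS5 signal (log2 axis) of the brightest probe set of each of the 10 genes, with points for the 12 arrays by group and a line for the geometric mean of 3; the dotted line, drawn where it falls near the data, is the filter signal of 69.8. MUC1 is lowest with BMP2, FOLR1 is lower with DM than with PBS, and MUC16 lies below the filter on every array.

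**Figure D2:**
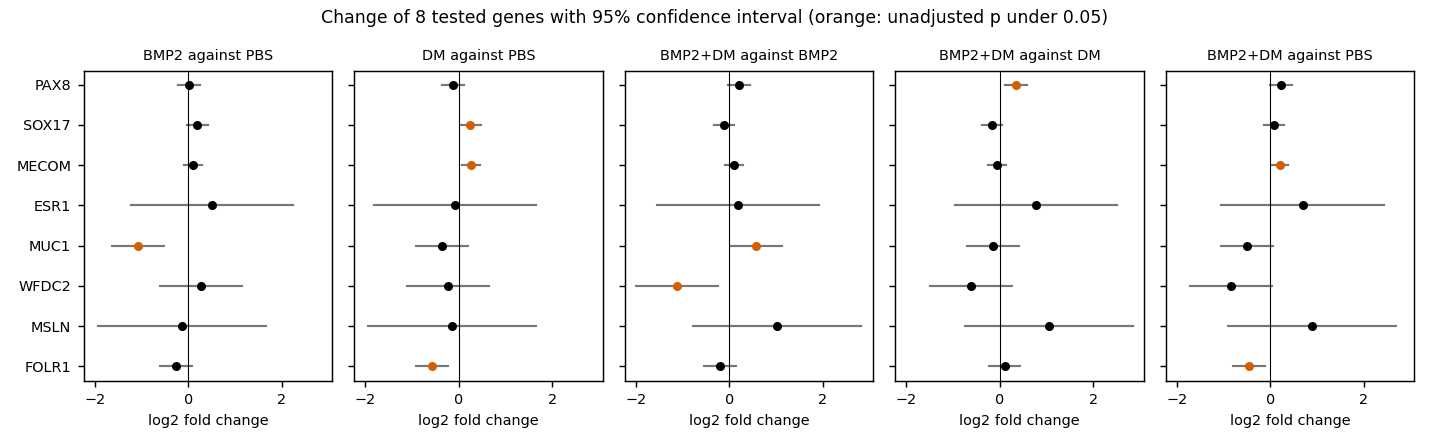
Log2 fold change of the 8 tested genes in 5 comparisons, with 95% confidence intervals from the limma fit; orange points have an unadjusted p under 0.05. Intervals are narrow for PAX8, SOX17 and MECOM and wide for ESR1 and MSLN, and 0 genes passed the adjusted threshold.

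MUC1, the mucin that covers the apical surface of epithelia, had the smallest p of the 8 genes in BMP2 against PBS. RefSeq promoter windows of GRCh38.p14 were found for 7 of the 10 genes, those of SOX17, MSLN and FOLR1 not being in the table used. The 250 bases before a start of MUC1 (chr1:155192910-155193159, minus strand) are shown for that reason, those of WFDC2 (chr20:45469503-45469752, plus strand) because it had the smallest p of the 8 when DM was added to BMP2, and 2 of the 3 windows of MECOM (chr3:169663713-169663962 and chr3:169146540-169146789, both minus strand) because its probe sets differed from each other. Capitals mark 4 motifs searched on both strands: the GC box GGGCGG, the TATA box TATAAA, the E-box CACCTG bound by repressors such as SNAI2 and ZEB1, and GGCGCC, a GC-rich motif described for SMAD1 and SMAD5.
MUC1: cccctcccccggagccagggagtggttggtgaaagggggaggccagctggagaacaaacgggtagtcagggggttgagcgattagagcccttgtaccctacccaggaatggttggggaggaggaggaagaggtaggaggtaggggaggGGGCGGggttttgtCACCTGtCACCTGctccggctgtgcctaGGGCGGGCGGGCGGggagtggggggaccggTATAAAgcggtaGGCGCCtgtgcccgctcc
WFDC2: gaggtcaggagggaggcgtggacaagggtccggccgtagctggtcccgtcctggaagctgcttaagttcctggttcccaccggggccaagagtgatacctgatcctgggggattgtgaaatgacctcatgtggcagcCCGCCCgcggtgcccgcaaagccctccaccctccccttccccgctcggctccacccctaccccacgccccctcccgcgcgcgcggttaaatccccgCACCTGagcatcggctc
MECOM, upstream start: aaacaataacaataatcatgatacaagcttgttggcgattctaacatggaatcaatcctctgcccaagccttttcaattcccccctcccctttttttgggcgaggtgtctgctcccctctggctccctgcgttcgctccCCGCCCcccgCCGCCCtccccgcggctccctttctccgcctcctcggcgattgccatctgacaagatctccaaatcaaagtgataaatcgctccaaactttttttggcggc
MECOM, downstream start: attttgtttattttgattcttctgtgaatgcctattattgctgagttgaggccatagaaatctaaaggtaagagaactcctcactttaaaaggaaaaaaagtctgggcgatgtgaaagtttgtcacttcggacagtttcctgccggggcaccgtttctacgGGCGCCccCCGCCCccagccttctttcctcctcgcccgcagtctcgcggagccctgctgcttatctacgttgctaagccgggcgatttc
The MUC1 window held 4 GC boxes, 3 of which overlap each other, a TATA box 30 bases before the start, 2 E-boxes at 88 and 81 bases and 1 GGCGCC at 18 bases. WFDC2 had 1 GC box at 113 bases and 1 E-box at 17 bases. Among 35116 promoter windows of the same length, 42.6% held a GC box, 10.7% a TATA box, 17.5% a CACCTG E-box and 16.4% GGCGCC. A match is a description of the letters only, and no binding was measured.

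The MUC1 signal of the probe set that stood for the gene, 213693_s_at, was 1006, 905 and 1165 with PBS and 275, 781 and 525 with BMP2. With DM it was 752, 889 and 750, and with both reagents 738, 663 and 766. All 3 BMP2 arrays lay below the lowest PBS array, and BMP2 replicate 1 was the lowest. The fitted change of MUC1 in BMP2 against PBS was -1.08 ± 0.26 (2.11-fold lower), with an adjusted p of 0.0803 by limma. Without BMP2 replicate 1 it was -0.67 (adjusted p = 0.209), and without BMP2 replicate 2 it was -1.43 and called (adjusted p = 0.00398). Over 24 alternatives the value stayed negative, with adjusted p from 0.00398 to 0.296.

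A second MUC1 probe set, 207847_s_at, had 417, 678 and 633 with PBS and 147, 270 and 247 with BMP2. It had 355, 462 and 609 with DM and 421, 491 and 347 with both. Its 3 BMP2 arrays were the lowest of all 12. When every probe set above the filter was fitted as its own row, it fell by 1.40 ± 0.29 on the log2 scale in BMP2 against PBS (adjusted p = 0.0421 by limma), in a fit that called 0.399% of 23284 probe sets. The third, 211695_x_at, ran from 157 to 386 with PBS and from 110 to 272 with BMP2, overlapping, and had -0.56 ± 0.38 (adjusted p = 0.653). Over the 12 arrays the first pair correlated at 0.817, and the third correlated with them at 0.171 and 0.338.

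With DM present, the MUC1 values with and without BMP2 lay closer together. In BMP2+DM against DM, 213693_s_at had -0.14 ± 0.26 and 207847_s_at -0.16 ± 0.29, neither called. The value of MUC1 in BMP2+DM against BMP2 was 0.58 ± 0.26 (adjusted p = 0.205) for the first and 0.96 ± 0.29 (adjusted p = 0.0684) for the second; the first was called without BMP2 replicate 2, at 0.925 (adjusted p = 0.0228), and was 0.171 without BMP2 replicate 1 (adjusted p = 0.683). The test of the difference between the BMP2 effects gave 0.94 ± 0.37 (adjusted p = 0.482) and 1.24 ± 0.41 (adjusted p = 0.481), and neither was called. The value of MUC1 in interaction was 0.531 without BMP2 replicate 1. By mean signal the order of the groups was PBS, DM, both and BMP2 for either probe set. The value of MUC1 in DM against PBS was -0.36 ± 0.26 for 213693_s_at (adjusted p = 0.564) and -0.195 with the probe sets averaged, so those neighbours in the order were not told apart by the test.

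**Figure D3:**
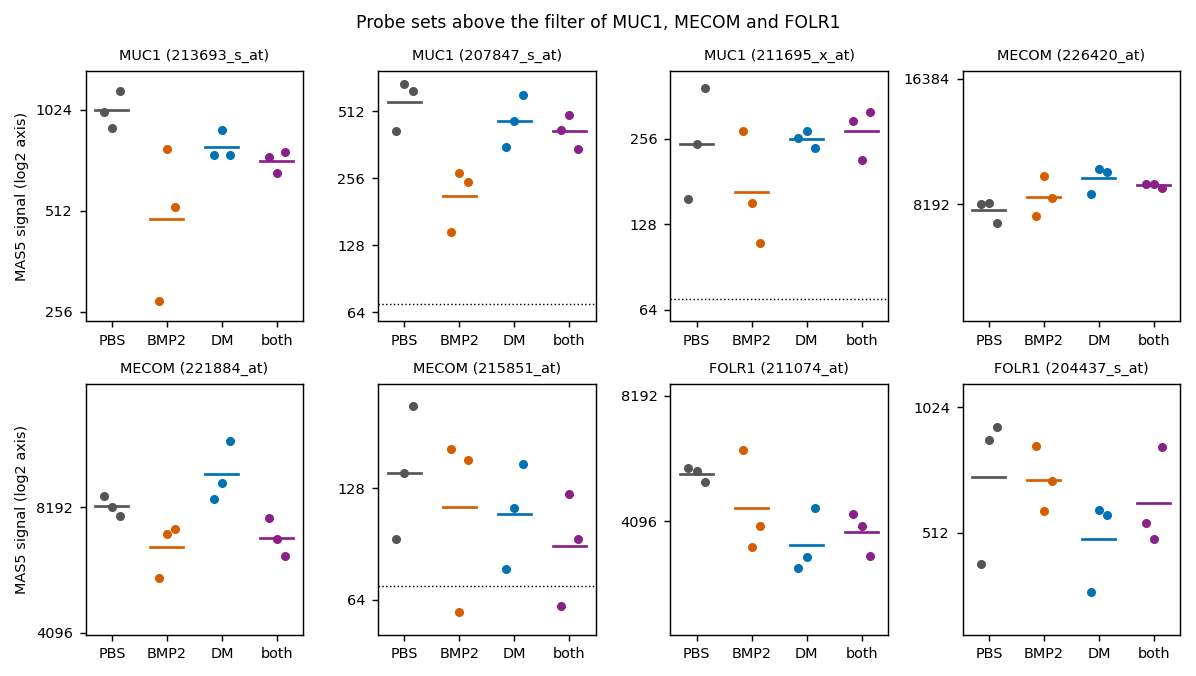
MAS5 signal (log2 axis) of the 8 probe sets above the filter for MUC1, MECOM and FOLR1 on 12 arrays, with a line for the geometric mean of each group of 3. MUC1 207847_s_at is lowest on the 3 BMP2 arrays, and MECOM 221884_at, but not 226420_at, is lower in both groups that received BMP2.

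FOLR1 encodes a membrane-anchored receptor that takes up folate and is a target of antibody-drug conjugates. Signals of 211074_at were 5482, 5401 and 5088 with PBS, 6050, 3544 and 3995 with BMP2, 3156, 3355 and 4394 with DM, and 4269, 3992 and 3376 with both. All 6 arrays with DM lay below the 3 PBS arrays, but they overlapped the BMP2 arrays, which spread most. The change was -0.57 ± 0.16 (1.48-fold lower) in DM against PBS, with an adjusted p of 0.0645, and -0.46 ± 0.16 in BMP2+DM against PBS, with an adjusted p of 0.119. The value of FOLR1 in BMP2+DM against BMP2 was -0.19 ± 0.16 (adjusted p = 0.541), and it turned to 0.0371 without BMP2 replicate 1.

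The value of FOLR1 in DM against PBS was called in 6 of 24 alternatives: with the brightest 30% of probe sets (adjusted p = 0.0431), only the groups compared (0.0214), array weights (0.0139), and without BMP2 replicate 1 (0.014), BMP2 replicate 2 (0.0402) or DM replicate 3 (0.0308). Its second probe set, 204437_s_at, read 430, 853 and 918 with PBS, 824, 576 and 681 with BMP2, 369, 580 and 565 with DM, and 540, 493 and 821 with both. All groups overlapped there, and the change in DM against PBS was -0.49 ± 0.28 (adjusted p = 0.478). Averaged over cultures with and without BMP2, a comparison added after the single ones had been seen, the DM effect on FOLR1 was -0.38 ± 0.11 with an adjusted p of 0.0391, the only call among the 8 genes (12% of all genes were called). At an unadjusted p under 0.05 there were 3, MECOM, WFDC2 and FOLR1, against 25.1% of all genes. That call was kept in 11 of 23 alternatives and lost in 12, as detailed in the closing section. The averaged BMP2 effect called 0 of the 8 genes, where 0.505% of all genes were called, and 2 had an unadjusted p under 0.05, PAX8 and MUC1, against 10.4%.

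WFDC2, a secreted protein with WAP domains, had its highest mean with BMP2 and its lowest with both reagents. Signals of 203892_at were 179, 181 and 274 with PBS, 292, 259 and 210 with BMP2, 210, 108 and 245 with DM, and 102, 82.5 and 185 with both. All 3 arrays with both reagents were below the 3 BMP2 arrays. The change in BMP2+DM against BMP2 was -1.11 ± 0.42 (2.17-fold lower), with an adjusted p of 0.119. The value of WFDC2 in BMP2+DM against BMP2 shrank to -0.194 (adjusted p = 0.928) when its 3 probe sets were averaged. The value of WFDC2 in BMP2 against PBS was 0.28 ± 0.42, and 0.0956 with the probe sets averaged. The other 2 probe sets of WFDC2 were below the filter, at geometric means of 69.2 and 33.7.

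MSLN, a glycosylphosphatidylinositol-anchored antigen of mesothelium and many ovarian tumours, was close to the filter. Its single probe set gave 81, 194 and 30.8 with PBS, 248, 26.8 and 56 with BMP2, 159, 51.3 and 43.3 with DM, and 126, 163 and 152 with both. Only 7 of the 12 arrays exceeded 69.8, among them all 3 with both reagents. The BMP2+DM against PBS value was 0.90 with a 95% confidence interval from -0.90 to 2.69.

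MUC16, the source of CA125, was not detected above the filter. Its one probe set had signals from 4.02 to 20.1, and 0 of 12 arrays exceeded the filter signal. Group means were 10.1 ± 5.82 (SD, n = 3) with PBS, 14.6 ± 5.26 with BMP2, 7.46 ± 3.95 with DM and 11.9 ± 3.26 with both. Its changes were therefore not tested.

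PAX8 was bright on every array through all 8 of its probe sets. The brightest, 121_at, gave 4947, 4837 and 5781 with PBS, 5242, 5749 and 4717 with BMP2, 4452, 4295 and 5576 with DM, and 6174, 6046 and 5916 with both. The 3 arrays with both reagents were the highest of the 12. In BMP2 against PBS the change was 0.01 ± 0.11, with a 95% confidence interval from -0.22 to 0.24. The value of PAX8 in BMP2+DM against DM was 0.35 ± 0.11 (1.27-fold higher), with an adjusted p of 0.317, and it turned to -0.0526 when the 8 probe sets were averaged. The value of PAX8 in BMP2+DM against PBS was 0.22 ± 0.11 (adjusted p = 0.278), and it turned to -0.0328 with the probe sets averaged and to -0.512 for the probe set with the smallest p, 214528_s_at.

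The PAX8 probe sets differed among themselves. The second brightest, 209552_at, correlated with 121_at at 0.803 over the 12 arrays and had 0.42 ± 0.21 in BMP2+DM against DM. In contrast, 214528_s_at had signals of 1372, 1569 and 1538 with PBS, 1402, 610 and 893 with BMP2, 1375, 1559 and 1683 with DM, and 1237, 983 and 940 with both. Its change was -0.70 ± 0.22 with BMP2 (adjusted p = 0.245) and -0.55 ± 0.22 when BMP2 was added to DM (adjusted p = 0.459). It correlated at -0.345 with 121_at and at 0.745, 0.739 and 0.736 with 207924_x_at, 207923_x_at and 213917_at. PAX8 is known for alternative splicing of its last exons; which transcripts each probe set reads was not analysed here, and 0 of the 8 probe sets were called in either comparison, where 0.399% and 0.0558% of all probe sets were. At an unadjusted p under 0.05 there were 1 and 3, against 10.1% and 8.87%.

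**Figure D4:**
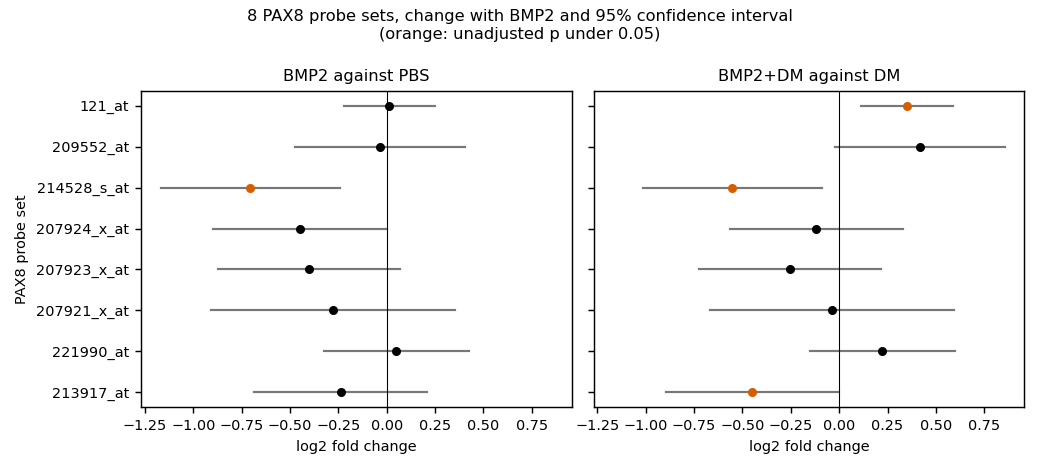
Log2 fold change of the 8 PAX8 probe sets with BMP2, without DM (left) and with DM (right), with 95% confidence intervals; orange points have an unadjusted p under 0.05. In the right panel 121_at lies at 0.35 and 214528_s_at at -0.55.

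SOX17, an endodermal and Müllerian factor that partners PAX8 in ovarian tumours, had no called change, with signals from 1497 to 1917 through its brightest probe set. Those of 230943_at were 1551, 1497 and 1500 with PBS, 1610, 1688 and 1917 with BMP2, 1776, 1827 and 1801 with DM, and 1618, 1595 and 1591 with both. The PBS arrays were the 3 lowest, and the groups with DM alone and with both varied by a standard deviation of only 25.8 and 14.9. The change was 0.25 ± 0.10 with DM (1.19-fold, adjusted p = 0.239 by limma) and 0.19 ± 0.10 with BMP2 (adjusted p = 0.542). For SOX17, BMP2+DM against DM gave -0.17 ± 0.10 (adjusted p = 0.698) and the interaction -0.36 ± 0.15 (adjusted p = 0.499). Its second probe set, 219993_at, ran from 1222 to 1434 with PBS and from 1292 to 1460 with DM, with a change of 0.03 ± 0.13. With both averaged, the value of SOX17 in DM against PBS was 0.137 and that of SOX17 in BMP2 against PBS 0.0527. The first probe set correlated with the second at 0.147.

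MECOM was read by a pair of bright probe sets whose arrays were ordered differently. The brightest, 226420_at, had 8181, 8219 and 7392 with PBS, 7661, 9544 and 8449 with BMP2, 8685, 9922 and 9792 with DM, and 9135, 9153 and 8970 with both. All 6 arrays with DM exceeded the 3 PBS arrays; the change was 0.25 ± 0.09 with DM (adjusted p = 0.152) and 0.20 ± 0.09 with both (adjusted p = 0.251). The other bright one, 221884_at, had 8741, 8209 and 7794 with PBS, 5546, 7082 and 7285 with BMP2, 8589, 9361 and 11826 with DM, and 7735, 6872 and 6265 with both. The 6 arrays with BMP2 were the 6 lowest. Its change was -0.32 ± 0.13 in BMP2 against PBS (adjusted p = 0.391) and -0.50 ± 0.13 in BMP2+DM against DM (adjusted p = 0.17).

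Averaged over cultures with and without DM, the BMP2 effect on 221884_at was -0.41 ± 0.09 with an adjusted p of 0.0493 by limma, where 0.545% of all probe sets were called; for 226420_at it was 0.02 ± 0.07. This averaged comparison was added after the values had been seen. The third MECOM probe set above the filter, 215851_at, ran from 59.3 to 213 with no group apart. MECOM transcripts start at sites far from each other, and the upstream and downstream windows printed above had GC boxes at 111 and 101 bases and at 81 bases before the start. The downstream window also held 1 GGCGCC, at 89 bases. The other MECOM window in the table, chr3:169147472-169147721 on the minus strand and not printed, held 0 matches to the 4 motifs. The start used in these cells was not measured.

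WT1, a zinc-finger factor that marks serous tumours and mesothelium, stayed below the filter. Its brighter probe set, 206067_s_at, gave 118, 90.2 and 60.1 with PBS, 76.7, 129 and 9.95 with BMP2, 8.56, 74.8 and 84.9 with DM, and 87.1, 93.5 and 65.4 with both, so 8 of 12 arrays exceeded 69.8 singly while the geometric mean was 59.1. The other probe set had a geometric mean of 9.34. ESR1 was as dim: of its 9 probe sets 1 passed the filter, 215551_at, with signals of 64.7, 31.9 and 143 with PBS, 144, 119 and 49.7 with BMP2, 18.5, 91.5 and 148 with DM, and 80.7, 122 and 127 with both. All groups overlapped, and the 95% confidence interval of BMP2 against PBS ran from -1.23 to 2.25. The remaining 8 had geometric means from 8.73 to 54.4.

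Genes related to these 10 were counted from 4 lists. The lists were chosen with earlier results of these data known, so their counts beside the shares of all genes are not an independent comparison. Of 30 other surface antigens and serum markers of ovarian carcinoma, 19 were tested: with BMP2 against PBS 1 rose and 0 fell, with DM 1 rose and 2 fell, and in BMP2+DM against BMP2 3 rose and 2 fell. The shares of all genes called in these comparisons were 0.631%, 3.57% and 7.25%. CD24, a glycosylated surface protein, rose by 0.68 ± 0.09 with BMP2 (adjusted p = 0.00131) and fell by 0.37 ± 0.09 with DM. CDH6, a cadherin of kidney and ovarian tumours, fell by 1.39 ± 0.24 when DM was added to BMP2 (adjusted p = 0.00172). SPP1, osteopontin, rose by 0.61 ± 0.09 with DM, and CD47, the signal against phagocytosis, fell by 0.40 ± 0.10. In BMP2+DM against BMP2, SPP1, ERBB2 and the adhesion molecule L1CAM rose by 0.41 ± 0.09, 0.37 ± 0.09 and 0.59 ± 0.15. The median over the 19 was 0.06, 0.03 and 0.07 in these comparisons, where that of all genes was 0.03, 0.02 and 0.03. In BMP2+DM against PBS 1 of the 19 rose and 2 fell (4.09% of all genes were called). In BMP2+DM against DM 0 were called (0.0473%). In the interaction (0.118%) 1 was called, CD24, at -1.01 ± 0.13, a difference between BMP2 effects and not a fall in signal. At an unadjusted p under 0.05 there were 8 of the 19 with BMP2, 6 with DM and 8 in BMP2+DM against BMP2. There were 1 in BMP2+DM against DM, 8 in BMP2+DM against PBS and 6 in the interaction. Of all genes, 10.5%, 16.2%, 21.8%, 8.88%, 18.7% and 8.7% had such a p, in the order given.

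Of 24 lineage factors and hormone receptors of the reproductive tract, 12 were tested. KLF4, a zinc-finger factor of differentiating epithelium, rose by 0.96 ± 0.20 with DM (adjusted p = 0.0097 by limma). It rose by 0.69 ± 0.20 when DM was added to BMP2. Of all genes, 3.57% and 7.25% were called in these comparisons. The other 11 were not called in any of the 6 comparisons. At an unadjusted p under 0.05 there were 1 of the 12 with BMP2, 3 with DM and 1 in BMP2+DM against BMP2. There were 2 in BMP2+DM against DM, 4 in BMP2+DM against PBS and 0 in the interaction. Of all genes, 10.5%, 16.2%, 21.8%, 8.88%, 18.7% and 8.7% had such a p, in the order given. The progesterone receptor gene PGR was below the filter at 18.7. Of 16 oestrogen receptor targets 10 were tested, and the same all-gene shares apply to their counts. With DM 1 fell: CA12, a carbonic anhydrase, by 0.97 ± 0.17 (adjusted p = 0.00314). In BMP2+DM against BMP2 2 rose, the D-type cyclin CCND1 by 0.83 ± 0.19 and the keratin KRT19 by 0.34 ± 0.09, and in BMP2+DM against PBS 1 rose, CCND1 by 0.76 ± 0.19. In BMP2 against PBS, BMP2+DM against DM and the interaction limma called 0 of the 10. At an unadjusted p under 0.05 there were 2 with BMP2, 2 with DM, 6 in BMP2+DM against BMP2, 0 in BMP2+DM against DM, 4 in BMP2+DM against PBS and 1 in the interaction. The shares of all genes at that p were 10.5%, 16.2%, 21.8%, 8.88%, 18.7% and 8.7%. Of 12 genes named as neighbours of MECOM on chromosome 3, 8 were tested and 2 fell in BMP2+DM against BMP2: SKIL, a SMAD corepressor, by 1.06 ± 0.15 and PRKCI, an atypical protein kinase C, by 0.47 ± 0.10 (7.25% of all genes were called there). In the other 5 comparisons limma called 0 of these 8. At an unadjusted p under 0.05 there were 3 of the 8 with BMP2, 1 with DM and 4 in BMP2+DM against BMP2. There were 1 in BMP2+DM against DM, 5 in BMP2+DM against PBS and 2 in the interaction. Of all genes, 10.5%, 16.2%, 21.8%, 8.88%, 18.7% and 8.7% had such a p, in the order given. MECOM itself had 0.09 ± 0.09 in BMP2+DM against BMP2.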

How the data were processed

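RNA of 12 cultures was measured on Affymetrix arrays. Labelled cRNA was hybridised, per the labels' protocols. MAS5, with no version given, made the signals, per the submitters' processing notes. The authors deposited 1 linear intensity value for each probe set and array, with 2% trimmed means from 495.6 to 495.9, so the authors had scaled the arrays and no further normalization was applied. No detection calls entered the analysis. Of 54613 probe sets, 41091 had 1 gene symbol in the platform annotation, 1801 had several and 11721 were not listed; 0 symbols needed updating.

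After a floor of 1 (396 values), log2 values were used. The brightest probe set stood for a gene, and it had to exceed the median probe set. limma 3.58.1 in R 4.3.3 was fitted with a mean for each group and an intensity trend (residual degrees of freedom 8, prior 9.24), two-sided. The code was tested on simulated data. With 3 arrays in each group, an exact permutation test has 0.1 as its smallest two-sided p, so limma alone was used. The number of arrays limits the precision, and cultures were treated as replicates. The members and lists were chosen with earlier results of these data known. Named genes were the 10 members and, from each list, up to 6 called genes with the smallest p, and ERBB2 as a check; KRT7, KRT8, KRT18, EPCAM, CDH1 and PGR were added after their levels were seen. The genes most correlated with a called member were to be named, but no member was called in the 6 comparisons.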

Additional observations from a re-analysis of the deposited data

How the results depend on the processing

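Choices changed 1 at a time were the scaling (quantile, median centring), an addition of 32 before log2, the filter (none, or the brightest 30%), how probe sets stand for a gene, the variance model (no trend, robust, array weights), the groups fitted, a replicate block and the omission of each array. Same-numbered arrays of different groups did not deviate together (correlations from -0.0262 to 0.0589, 0 of 18 above 0.1), and with the replicate block 0 members were called in each of the 6 comparisons and 1, FOLR1, for the averaged DM effect. With every probe set fitted, each comparison read the probe set of a gene that had the smallest p, a choice that favours calls. In BMP2 against PBS 1 member was called that way, and 0 to 1 with an array omitted. In DM against PBS 1 was called with the brightest 30% of probe sets, with only the groups compared and with array weights, and 0 to 1 with an array omitted. For BMP2+DM against BMP2 it was 0 to 1 with an array omitted, and for BMP2+DM against PBS 1 with only the groups compared and 0 to 1 with an array omitted. BMP2+DM against DM and the interaction had 0 in every alternative run. The averaged effects were added after the data were seen: the averaged BMP2 effect had 1 call with every probe set, where the MECOM value turned from 0.02 to -0.413 because another probe set was read, and 0 to 1 with an array omitted. The averaged DM effect had 2 calls with quantile normalization (FOLR1 and MECOM), 0 with median centring, 0 with probe sets averaged per gene, 0 with every probe set, 0 with no intensity trend, and 0 to 2 with an array omitted. FOLR1 lost that call without PBS replicate 1, 2 or 3, BMP2 replicate 1, DM replicate 1 or 2, or BMP2+DM replicate 2 or 3, with values from -0.394 to -0.264; the cause was not tested. Of 1488 member values under alternatives, 53 changed sign without a call in either fit. WT1, MUC16, ESR1 and MSLN had signals near or below the filter, which limits what could be seen of them.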

Other observations

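Both bright MECOM probe sets could be compared within each array, a comparison chosen after the values were seen and given without a test. The log2 signal of 221884_at minus that of 226420_at was 0.10, -0.0018 and 0.08 with PBS, -0.02, -0.08 and 0.27 with DM, -0.47, -0.43 and -0.21 with BMP2, and -0.24, -0.41 and -0.52 with both. It ranged from -0.52 to -0.21 on the 6 arrays with BMP2 (median -0.42) and from -0.08 to 0.27 on the 6 without (median 0.04), with no overlap. For PAX8 the difference taken was 214528_s_at minus 121_at, a pair likewise chosen after the values were seen and given without a test. It skipped the second brightest probe set, 209552_at, which correlated at 0.803 with 121_at and at -0.0129 with 214528_s_at. The PAX8 difference ranged from -3.24 to -1.90 on the arrays with BMP2 (median -2.51). It ranged from -1.91 to -1.46 on those without, overlapping at BMP2 replicate 1. The position of these probe sets on the transcripts was not analysed here.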
